A study of Mus musculus with 18 samples.

Results

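The transcripts of 9 genes of iron and heme handling were followed in immune cells sorted from atherosclerotic arteries of mice. The genes were Cd163, Slc48a1, Hmox1, Blvrb, Slc11a1, Tfrc, Fth1, Ftl1 and Slc40a1, taken by symbol for their part in the uptake and breakdown of heme and the uptake, storage and export of iron. All 9 stood among the 23337 genes of the count table, and all 9 were among the 17143 genes that passed the filter on low counts and were tested.

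Living CD45+ cells were taken out of the aorta and carotids of C57BL/6 mice of both sexes. All mice, whatever the sorted cells, were Apoe-/- and carried both reporters, Cx3cr1GFP and Cd11cYFP. They were 7 months old, of which 5 months had been on a Western diet. Cells were sorted by fluorescence into YFP+ cells (YFP, n = 5 libraries), GFP+YFP+ cells (DP, n = 4), GFP+ cells (GFP, n = 6) and GFP-YFP- cells (DN, n = 3). Cx3cr1 encodes a chemokine receptor found on monocytes and on part of the macrophages, and Itgax encodes Cd11c, so each reporter marks cells that use a promoter and not a lineage. RNA was amplified with SMART-seq v4 and read on a HiSeq 4000. The labels do not say whether a library came from 1 animal or from a pool, so p-values measure the spread between these libraries. In sorted bulk RNA, fewer cells of a kind and less RNA per cell cannot be told apart.

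Macrophages take up dying red cells and free hemoglobin, and an artery wall that bleeds into a plaque adds to that load. Cd163 encodes the scavenger receptor for complexes of haptoglobin and hemoglobin. Slc48a1 encodes the carrier that moves heme out of the digestive vacuole, Hmox1 the oxygenase that opens the heme ring and frees the iron, and Blvrb a reductase that acts on biliverdin and flavins. Slc11a1 encodes a metal transporter of the phagosome, and Tfrc the receptor that brings in iron bound to transferrin. Fth1 and Ftl1 encode the heavy and light chains of ferritin, the cage in which iron is stored. Slc40a1 encodes ferroportin, the carrier through which iron leaves the cell.

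For 4 of the 9 genes, control by iron is written into the transcript as an iron-responsive element, a hairpin with a bulged C and a CAGTGN loop that is bound by iron regulatory proteins when iron is scarce. At the start of a transcript the bound hairpin holds back translation, and at its end it protects the RNA from decay, as is textbook knowledge for ferritin and for the transferrin receptor. The elements are shown because in Fth1, Ftl1 and Slc40a1 they bear on translation, which counts of RNA do not read. In Tfrc they bear on the RNA level itself. The 30 bases around each are printed 5′ to 3′ with the bulged C and the loop in capitals. They were read from GENCODE vM21 transcripts (GRCm38) by a search on the transcript strand for a C, 5 bases, the loop and 5 bases that pair with the first 5, with G-T pairs allowed.
Fth1, 5′ UTR, chr19:9982732-9982761, plus strand: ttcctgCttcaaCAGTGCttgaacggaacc
Ftl1, 5′ UTR, chr7:45459778-45459807, minus strand: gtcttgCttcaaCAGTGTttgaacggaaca
Slc40a1, 5′ UTR, chr1:45925464-45925493, minus strand: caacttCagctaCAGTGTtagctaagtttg
Tfrc, 3′ UTR, chr16:32631219-32631248, plus strand: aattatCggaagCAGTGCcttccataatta
Tfrc, 3′ UTR, chr16:32631598-32631627, plus strand: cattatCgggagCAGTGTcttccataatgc
Tfrc, 3′ UTR, chr16:32631663-32631692, plus strand: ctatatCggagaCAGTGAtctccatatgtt
Tfrc, 3′ UTR, chr16:32631710-32631739, plus strand: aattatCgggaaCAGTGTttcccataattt
Both ferritin hairpins shared the same stem letters on either side of the loop. The same motif was found in the 5′ UTR of 19 of 20391 genes (0.0932%) and in the 3′ UTR of 104 of 21581 genes (0.482%). The other 5 genes held no match in either UTR, which says only that these letters were not there. A match is a description of sequence and not of binding in these cells.

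Total counts ran from 9790946 to 27742113 per library, apart from 289166 in YFP replicate 6. Levels of the reporter genes, as CPM, the usual counts-per-million unit, here on library sizes scaled by TMM, went against some labels. The libraries labelled DP replicate 4 and 5 had only 9.43 and 0.427 CPM of Cx3cr1 and 38.6 and 47.8 CPM of Itgax, and those labelled DN replicate 3 and 6 had 142 and 134 CPM of Cx3cr1 and 332 and 297 CPM of Itgax. GFP libraries held 80.9 to 165 CPM of Cx3cr1 and also 107 to 191 CPM of Itgax. The library labelled YFP replicate 6 had 104 CPM of Cx3cr1 and 89.6 CPM of Itgax, and the other YFP libraries had 0.930 to 60.7 CPM of Cx3cr1 and 175 to 1120 CPM of Itgax. Libraries also differed in cell content: summed neutrophil markers reached 38900 CPM in DP replicate 5, against 32.5 to 327.5 CPM in GFP libraries, and DN replicate 1 had 1343 CPM of T cell and 1644 CPM of B cell markers. All 10 fibroblast markers had higher fitted levels in YFP and in DP than in GFP, with median log2 fold changes of 2.73 and 3.15, and Dcn and Mfap5, which encode matrix proteins, passed the test between DP and GFP. Their sums were 916.5 to 11060 CPM in YFP, 1292 to 12200 CPM in DP, 263 to 1109 CPM in GFP and 2267 to 4410 CPM in DN, none of the 10 being at 0 in any library. Smooth muscle markers summed to 3076 and 4763 CPM in DP replicates 4 and 5, against 100 to 406 CPM in GFP libraries. Myl9 of the smooth muscle list and Ly6c1 of the monocyte list also passed between DP and GFP (edgeR adjusted p = 0.0457 and 0.0400). The part of these markers in the results for the 9 genes was not tested. Of 8724 genes that had at least 4 CPM in every GFP library, 20.7% were under 1 CPM in YFP replicate 5 and 23.1% in DP replicate 5, against at most 1.5% in any other library, so many genes were near 0 in these 2 libraries. Numbers 1 and 2 had 19245 to 21972 detected genes, and numbers 3 to 6 had 13150 to 18961.

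Ferritin transcripts stood far above the others in every subset. Per kilobase of exon, over the 18 libraries, Ftl1 averaged 16210 CPM and Fth1 3910 CPM. The length was that of all annotated exons of a gene merged: 1340 bases for Ftl1, 3469 for Fth1 and 9000 for Slc40a1. The single transcripts searched for the hairpin were shorter, at 968, 1494 and 3370 bases, so gaps between genes depend on this choice. Without length, Ftl1 averaged 21720 CPM and Fth1 13560 CPM, and the order of the genes was the same. Slc11a1 (167 CPM per kilobase) and Hmox1 (164) followed, then Slc48a1 (57.3) and Blvrb (55.7), Cd163 (21.6), Tfrc (3.70) and Slc40a1 (1.08). Slc11a1 and Hmox1, and likewise Slc48a1 and Blvrb, lay closer to each other than their spread over libraries. The order thus ran, by level of RNA, from storage through phagosomal metal transport and heme breakdown to hemoglobin uptake, with transferrin-iron uptake and iron export at the low end.

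No pair of subsets differed past the threshold for any of the 9 genes, in 6 pairs tested. By edgeR's quasi-likelihood test with Benjamini-Hochberg adjustment over all tested genes, adjusted p under 0.05 was reached by 0 of 54 results for these genes, beside 0% of all genes between YFP and GFP, 0.198% between DP and GFP, and 0% between YFP and DP, GFP and DN, DP and DN, and YFP and DN. The smallest adjusted p was 0.592. An unadjusted p under 0.05 was found in 3 results: Slc48a1 between YFP and GFP (where 7.02% of all genes reached it), Tfrc between DP and GFP (6.84%) and Cd163 between GFP and DN (1.35%). None of the 9 reached it between YFP and DP (6.73% of all genes), DP and DN (2.71%) or YFP and DN (2.69%). Across all 4 subsets at once, 0 of the 9 genes passed, beside 0.332% of all genes, and 1 had an unadjusted p under 0.05, beside 6.96% of all genes: Slc48a1, with an adjusted p of 0.714. DESeq2 gave a p for 42 of the 54 and called 0 of them; it set no p for the 12 results of Blvrb and Tfrc. With the replicate number as a block, edgeR left 1 of the 54 with an unadjusted p under 0.05, Cd163 between GFP and DN, and the 34 genes called over the whole table between DP and GFP fell to 0. The p-values do not show that the subsets were alike, since the intervals around the fold changes were wide.

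**Figure D1:**
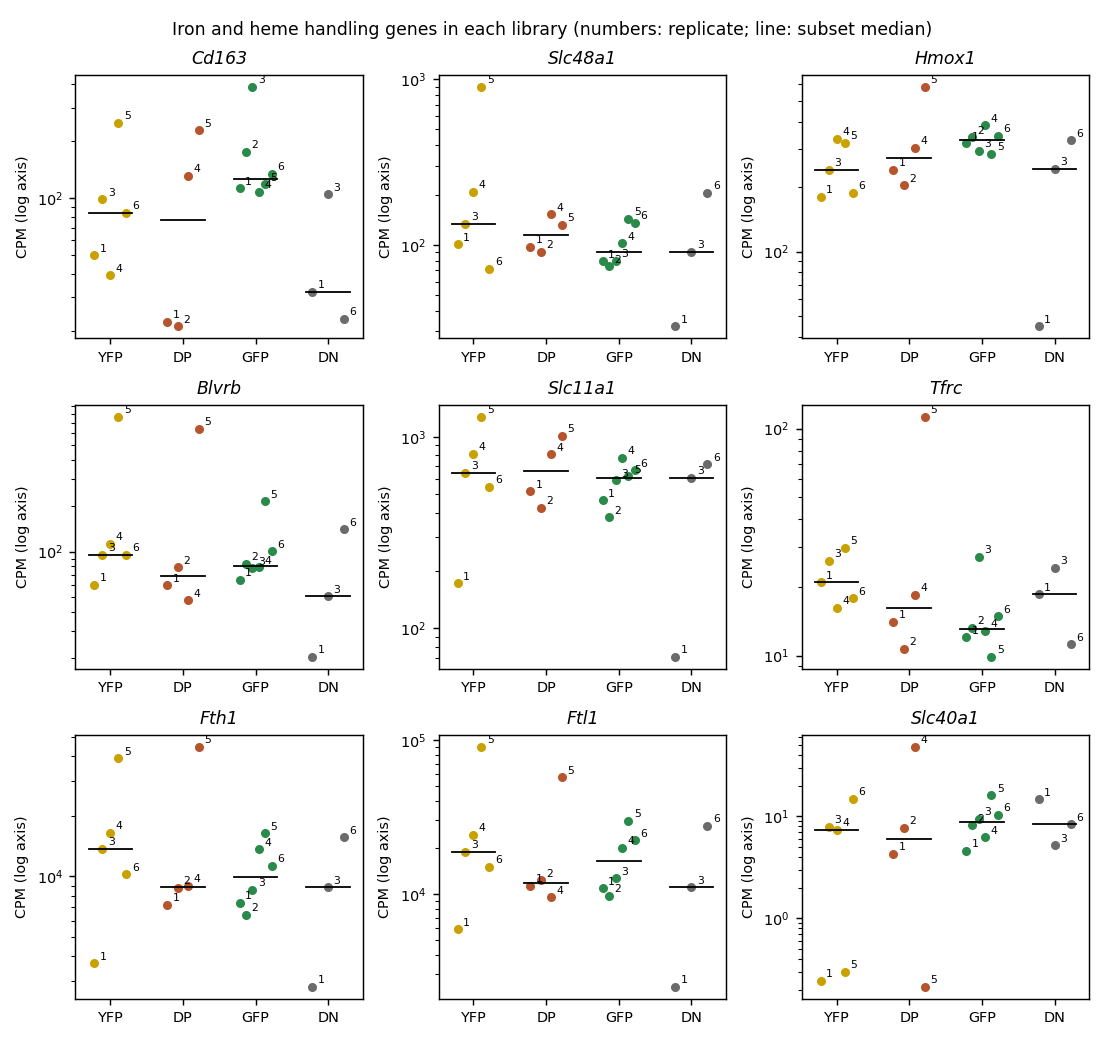
CPM of each of the 9 genes on a log axis, 1 point per library, with YFP, DP, GFP and DN from left to right and a bar at each subset median. Points of different subsets overlap for every gene and pair except Cd163 in GFP and DN, and single libraries such as YFP replicate 5 (Blvrb 769 CPM) stand above the rest.

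Hemoglobin uptake was represented by Cd163 (chromosome 6, 124304656 to 124330527, plus strand, GRCm38). YFP replicates 1, 3, 4, 5 and 6 had 50.0, 98.5, 39.2, 251 and 83.6 CPM of Cd163, and DP replicates 1, 2, 4 and 5 had 22.3, 21.1, 131 and 228 CPM. The 6 GFP libraries lay between 108 and 388 CPM with a median of 126 CPM, and DN replicates 1, 3 and 6 had 32.1, 105 and 23.0 CPM. No DN library reached the lowest GFP library, while YFP and DP libraries spread over both ranges. Mean levels were 104 ± 85.3 CPM in YFP (SD, n = 5), 101 ± 99.5 CPM in DP (n = 4), 173 ± 108 CPM in GFP (n = 6) and 53.4 ± 45.0 CPM in DN (n = 3).

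The largest Cd163 difference was between GFP and DN, with a log2 fold change of 1.70 ± 0.79 (SE; 95% interval 0.14 to 3.25; edgeR adjusted p = 1). Every GFP library was above every DN library, the lowest GFP library by a narrow margin (107.7 against 105.0 CPM). Over all genes, 1.48% had ranges that did not overlap in this comparison. Cd163 was the only one of the 9 genes with ranges that did not overlap, in 1 of 54 results. In the other pairs 0.834% (YFP and GFP), 1.32% (DP and GFP), 0.793% (YFP and DP), 1.43% (DP and DN) and 0.951% (YFP and DN) of all genes had such ranges. The fit gave 1.19 without GFP replicate 3, the library at 388 CPM, and 2.39 without DN replicate 3. DN replicate 3, nearest to the GFP libraries, is among the libraries labelled DN that had Cx3cr1 and Itgax at 142 and 332 CPM. The log2 fold change of Cd163 was -0.72 ± 0.63 between YFP and GFP and -0.78 ± 0.68 between DP and GFP (adjusted p = 0.977 and 1, edgeR). With 1 library left out, the first ran from -1.33 (without YFP replicate 5) to -0.03 (without GFP replicate 3) and the second from -1.40 (without DP replicate 5) to 0.14 (without GFP replicate 3). Within DP, replicates 1 and 2 were both below every GFP library, and those going against their label were at 131 and 228 CPM. Summed resident macrophage markers, with 19 of 20 genes in the table and none at 0 in any library, were 4627 to 51440 CPM in YFP, 8063 to 57160 CPM in DP, 8492 to 25450 CPM in GFP and 1334 to 19630 CPM in DN, and their part in the Cd163 levels was not tested.

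Heme export from the vacuole, the work of Slc48a1 (chromosome 15, 97778520 to 97792692, plus strand), gave the smallest p of the 9 genes. It stood at 101, 134, 209, 905 and 71.7 CPM in YFP replicates 1, 3, 4, 5 and 6. DP replicates 1, 2, 4 and 5 held 97.5, 90.9, 153 and 132 CPM. GFP libraries held 74.0 to 143 CPM with a median of 91.0 CPM, and DN replicates 1, 3 and 6 held 32.2, 90.9 and 207 CPM. A single YFP library was several times above all others, YFP replicate 4 was also above the GFP range, and the other YFP libraries lay in it or just below. Slc48a1 averaged 284 ± 351 CPM in YFP, 118 ± 29.2 CPM in DP, 103 ± 30.5 CPM in GFP and 110 ± 88.8 CPM in DN.

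The log2 fold change of Slc48a1 was 1.47 ± 0.57 between YFP and GFP (edgeR adjusted p = 0.592, 95% interval 0.36 to 2.59) and 1.27 ± 0.65 between YFP and DP (adjusted p = 0.775). Without YFP replicate 5 these values were 0.40 and -0.22. Over all alternatives the YFP and GFP difference ran from 0.40 to 2.12 with adjusted p between 0.115 and 1. Summed foamy macrophage markers, all 16 in the table and none at 0 in any library, were 16600 to 146900 CPM in YFP, 13060 to 36430 CPM in DP, 10170 to 44110 CPM in GFP and 1732 to 62360 CPM in DN. The highest was again YFP replicate 5, and the part of these markers in the Slc48a1 level was not tested. Between DP and GFP the log2 fold change was 0.21 ± 0.60.

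Heme breakdown by Hmox1 (chromosome 8, 75093621 to 75100589, plus strand) was the steadiest readout in GFP cells. YFP replicates 1, 3, 4, 5 and 6 had 179, 239, 333, 320 and 188 CPM of Hmox1, and DP replicates 1, 2, 4 and 5 had 241, 204, 303 and 585 CPM. GFP libraries had 284 to 387 CPM with a median of 329 CPM, a coefficient of variation of 11.5%, and DN replicates 1, 3 and 6 had 44.9, 242 and 329 CPM. The low end was the lymphocyte-rich DN replicate 1 and the high end DP replicate 5. Means were 252 ± 72.2 CPM in YFP, 333 ± 173 CPM in DP, 328 ± 37.7 CPM in GFP and 205 ± 145 CPM in DN. Hmox1 had a log2 fold change of -0.38 ± 0.45 between YFP and GFP and of 0.02 ± 0.47 between DP and GFP, with intervals of -1.26 to 0.50 and -0.91 to 0.95.

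Blvrb (chromosome 7, 27447978 to 27466144, plus strand), which acts after the heme ring is opened, was spread more widely. Its levels were 60.6, 94.9, 112, 769 and 95.5 CPM in YFP replicates 1, 3, 4, 5 and 6. For DP replicates 1, 2, 4 and 5 they were 60.1, 78.9, 47.9 and 642 CPM. GFP libraries ran from 65.1 to 213.5 CPM with a median of 81.0 CPM, and DN replicates 1, 3 and 6 were at 20.4, 50.7 and 140 CPM. In YFP, DP and GFP alike the library numbered 5 was the highest, and the other libraries of the 3 subsets overlapped. Log2 fold changes of Blvrb were 1.14 ± 0.71 between YFP and GFP and 1.01 ± 0.75 between DP and GFP (adjusted p = 0.856 and 1, edgeR). Without YFP replicate 5 the first was -0.13, and without DP replicate 5 the second was -0.47.

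Blvra, the other biliverdin reductase and a member of the wider heme list, is named here after its values were seen. It averaged 157.5 ± 214 CPM in YFP, 85.9 ± 103 CPM in DP, 74.0 ± 42.2 CPM in GFP and 59.9 ± 55.1 CPM in DN. Its highest library was also YFP replicate 5, at 538 CPM.

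Slc11a1 (chromosome 1, 74375195 to 74386062, plus strand), the metal transporter of the phagosome, was abundant in most libraries. C57BL/6 mice are known to carry an allele whose protein does not work normally, so its counts speak of RNA alone. YFP replicates 1, 3, 4, 5 and 6 had 171, 646, 812, 1272 and 549 CPM of Slc11a1, and DP replicates 1, 2, 4 and 5 had 519, 425, 808 and 1010 CPM. GFP libraries had 379 to 779 CPM with a median of 606 CPM, and DN replicates 1, 3 and 6 had 71.1, 612 and 717 CPM. The lowest 2 were DN replicate 1 and YFP replicate 1, the pair of libraries with the most B cell marker RNA (1644 and 672.5 CPM summed). YFP replicate 1 also had 11060 CPM of fibroblast markers and the highest endothelial sum of all libraries, 344.8 CPM. The part of any of these markers in the Slc11a1 level was not tested. Its log2 fold change was 0.24 ± 0.51 between YFP and GFP and 0.24 ± 0.54 between DP and GFP, and neither passed the test.

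Tfrc (chromosome 16, 32608920 to 32632794, plus strand), the receptor for transferrin-bound iron, was low throughout. Its levels were 21.1, 26.2, 16.3, 29.9 and 17.9 CPM in YFP replicates 1, 3, 4, 5 and 6, the last from 6 counts (exact Poisson 95% interval 6.57 to 39.0 CPM). DP replicates 1, 2, 4 and 5 had 14.1, 10.7, 18.5 and 113 CPM, GFP libraries 9.90 to 27.3 CPM with a median of 13.1 CPM, and DN replicates 1, 3 and 6 had 18.6, 24.3 and 11.2 CPM. DP replicate 5, the library with 38900 CPM of neutrophil markers, was the single one far from the rest, at 1058 counts, and the part of those markers was not tested. The log2 fold change between DP and GFP was 1.37 ± 0.63 (edgeR adjusted p = 0.681, 95% interval 0.14 to 2.61), with 0.15 without DP replicate 5 and 2.25 without GFP replicate 3 (adjusted p = 0.264). For YFP against GFP it was 0.58 ± 0.60 (adjusted p = 0.977).

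Ferritin heavy chain, Fth1 (chromosome 19, 9980598 to 9985098, plus strand), carries the site that oxidises iron for storage. YFP replicates 1, 3, 4, 5 and 6 had 3673, 13730, 16610, 39190 and 10250 CPM of Fth1, and DP replicates 1, 2, 4 and 5 had 7221, 8774, 8952 and 44610 CPM. GFP libraries had 6419 to 16450 CPM with a median of 9921 CPM, and DN replicates 1, 3 and 6 had 2799, 8821 and 15700 CPM. Outside the libraries numbered 5, the highest Fth1 level was 16610 CPM in YFP, 8952 CPM in DP and 13700 CPM in GFP. YFP replicates 3 and 4 were thus above every remaining GFP library, replicate 3 by a narrow margin. Fth1 averaged 16690 ± 13470 CPM in YFP, 17390 ± 18170 CPM in DP, 10640 ± 3903 CPM in GFP and 9106 ± 6454 CPM in DN.

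Ferritin light chain, Ftl1 (chromosome 7, 45457944 to 45459884, minus strand), which helps the iron core form, followed the same libraries. It stood at 5861, 18720, 24120, 90370 and 14940 CPM in YFP replicates 1, 3, 4, 5 and 6. DP replicates 1, 2, 4 and 5 stood at 11230, 12260, 9504 and 57440 CPM. GFP libraries ran from 9678 to 29910 CPM with a median of 16290 CPM, and DN replicates 1, 3 and 6 were at 2480, 11000 and 27720 CPM. Both chains have processed copies elsewhere in the genome, so reads that could fit a copy make their counts uncertain.

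The log2 fold change between YFP and GFP was 0.65 ± 0.58 for Fth1 and 0.81 ± 0.65 for Ftl1 (edgeR adjusted p = 0.977 and 0.967), and between DP and GFP it was 0.71 ± 0.61 and 0.37 ± 0.69 (adjusted p = 1 for both). Ranges of the subsets overlapped in every pair for both chains. Among numbers 1 and 2, Fth1 was at 3673 CPM in the only YFP library, 7221 and 8774 CPM in DP libraries and 7401 and 6419 CPM in GFP libraries. Among numbers 3 to 6, it averaged 19950 CPM in YFP (n = 4), 26780 CPM in DP (n = 2) and 12500 CPM in GFP (n = 4). These means include replicate 5, at 39190 CPM in YFP, 44610 CPM in DP and 16450 CPM in GFP. Apart from it, this set had 10250 to 16610 CPM in YFP, 8952 CPM in DP and 8569 to 13700 CPM in GFP. The YFP level was thus below GFP in one set of numbers, from 1 YFP library. In the other set the YFP mean was above that of GFP, with overlapping ranges.

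**Figure D2:**
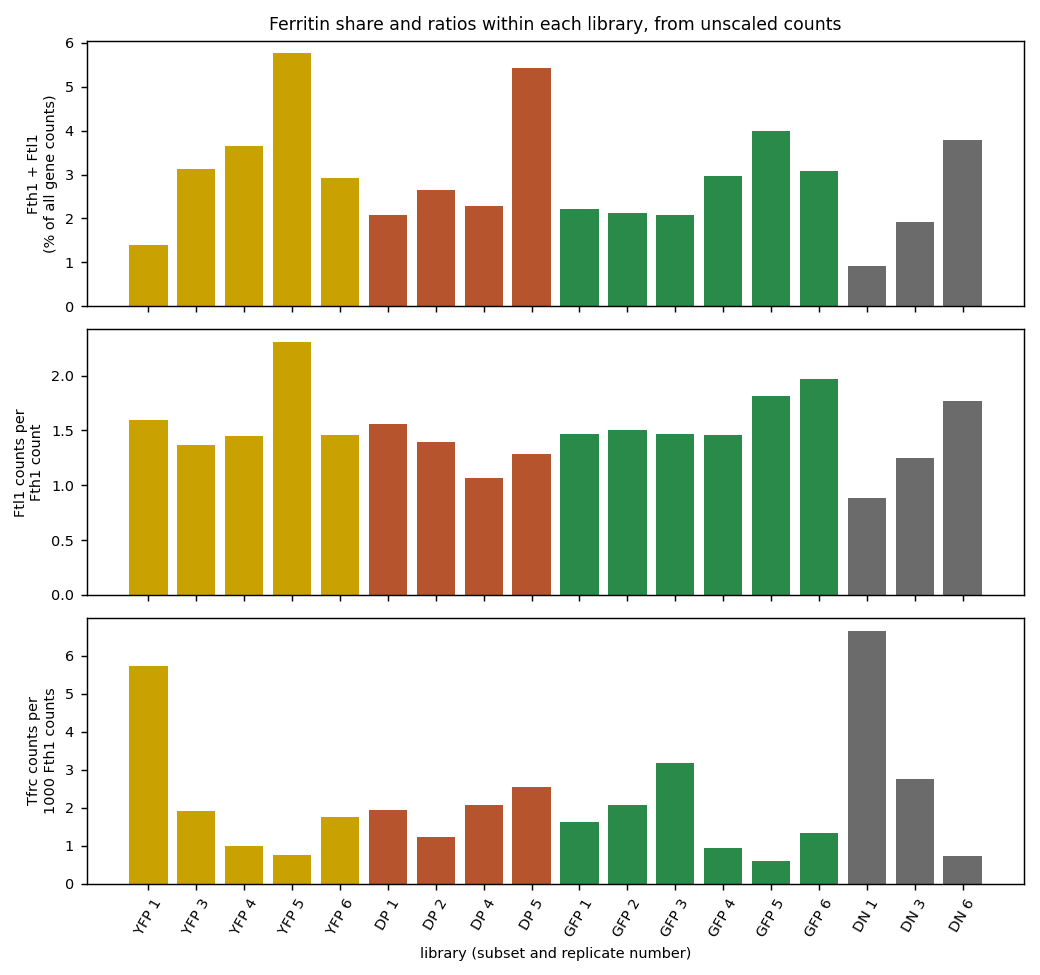
Share of all counts taken by Fth1 and Ftl1 together in each of the 18 libraries, with subsets in the order YFP, DP, GFP and DN. The share was highest in YFP replicate 5 (5.76%) and DP replicate 5 (5.44%) and lowest in DN replicate 1 (0.923%).

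As a share of all counts, which needs no scaling between libraries, ferritin took 5.76% in YFP replicate 5 (exact binomial 95% interval 5.752 to 5.772%) and 5.44% in DP replicate 5 (5.425 to 5.446%). GFP libraries gave 2.08 to 4.00%, and DN replicate 1 gave 0.923% (0.9195 to 0.9271%). These intervals cover counting error only, since reads without molecular identifiers are not independent molecules. The 2 highest shares fell in the libraries with the lowest scaling factors, 0.445 in YFP replicate 5 and 0.533 in DP replicate 5, so CPM sets these libraries further from the others than the shares do. The ratio of Ftl1 to Fth1 counts ran from 2.31 in YFP replicate 5 to 0.886 in DN replicate 1, the only library with fewer Ftl1 than Fth1 counts. Tfrc counts per 1000 Fth1 counts ran from 5.74 in YFP replicate 1 and 6.65 in DN replicate 1 down to 0.602 in GFP replicate 5. The proportion of uptake to storage transcripts thus differed more between single libraries of YFP or DN than over the GFP libraries, whose highest value was 3.19.

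Iron export was read from Slc40a1 (chromosome 1, 45908068 to 45926523, minus strand), the least abundant of the 9 genes. YFP replicates 1, 3, 4, 5 and 6 had 0.245, 7.94, 7.43, 0.299 and 14.9 CPM, from 10, 167, 118, 3 and 5 counts. DP replicates 1, 2, 4 and 5 had 4.33, 7.73, 48.1 and 0.213 CPM, from 52, 95, 1158 and 2 counts. GFP libraries had 4.62 to 16.1 CPM with a median of 8.82 CPM, and DN replicates 1, 3 and 6 had 14.7, 5.20 and 8.37 CPM. Ferroportin RNA was present in every GFP and DN library, while YFP replicates 1 and 5 and DP replicate 5 held 10 or fewer counts of totals of 27742113, 22549117 and 17601365. The exact Poisson 95% intervals of these 3 libraries were 0.117 to 0.450, 0.0617 to 0.874 and 0.0258 to 0.771 CPM. All lay below that of the lowest GFP library, 3.73 to 5.65 CPM. Such intervals cover counting error only and not the spread between libraries. The level of 14.9 CPM in YFP replicate 6 rests on 5 counts, with an interval of 4.85 to 34.8 CPM.

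Fitted log2 fold changes of Slc40a1 were -0.76 ± 0.99 between YFP and GFP and 0.72 ± 0.97 between DP and GFP (edgeR adjusted p = 0.977 and 1). Without DP replicate 4, the library at 48.1 CPM, the second was -1.16. YFP replicate 5 and DP replicate 5, at 0.299 and 0.213 CPM of Slc40a1, had the highest Fth1 and Ftl1 levels, and YFP replicate 1, at 0.245 CPM, had Fth1 and Ftl1 levels below every GFP library. In YFP replicate 5 and DP replicate 5 a near-absent gene was not particular to Slc40a1, since 20.7% and 23.1% of the genes present in all GFP libraries were under 1 CPM there, against 0.298% in YFP replicate 1.

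**Figure D3:**
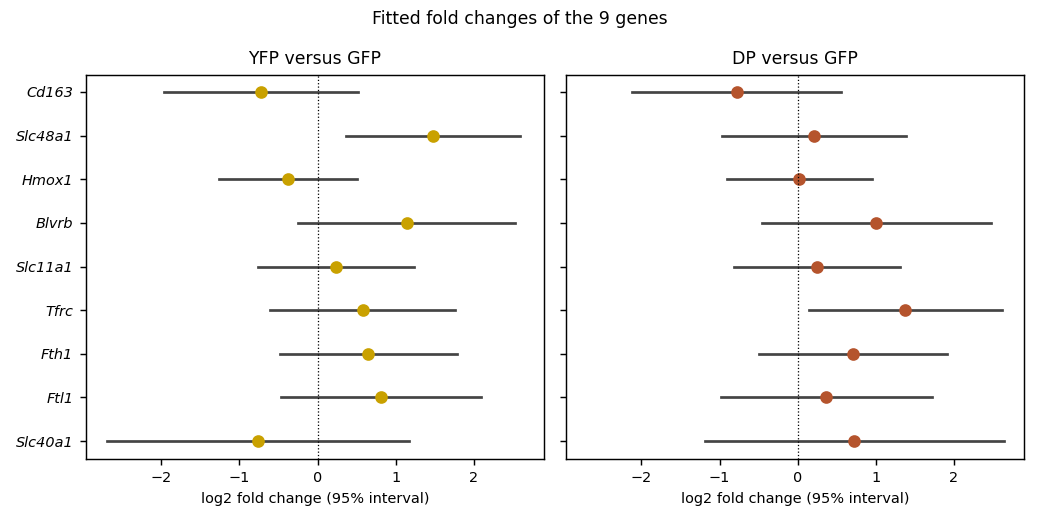
Fitted log2 fold changes of the 9 genes between YFP and GFP (left) and DP and GFP (right), with bars for the 95% interval. The interval lies above 0 only for Slc48a1 on the left (0.36 to 2.59) and Tfrc on the right (0.14 to 2.61), and neither passed the adjusted test.

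As a group, 6 of the 9 genes had fitted log2 fold changes above 0 between YFP and GFP, where 51.7% of all genes did, with a median of 0.58 against 0.04 over all genes. Between DP and GFP it was 8 of 9, against 59.4% of all genes, with a median of 0.37 against 0.20. The 2 comparisons share the GFP libraries. The 9 genes are not separate results, since some moved together over the libraries (Pearson's r of log2 levels 0.972 for Fth1 and Ftl1). Others did not (-0.545 for Blvrb and Slc40a1). The DP and GFP count also rests on few libraries. Hmox1, Blvrb, Tfrc, Fth1 and Ftl1 fell below 0 without the libraries numbered 5. The same genes, Slc11a1 and Slc40a1 did so without the DP and DN libraries against their labels. Between YFP and DP 5 of 9 were above 0 (all genes 45.6%), between GFP and DN 6 of 9 (54.2%), between DP and DN 9 of 9 (58.9%) and between YFP and DN 8 of 9 (52.4%). The comparisons with DN rest in part on DN replicate 1, which had the lowest level of 6 genes: Hmox1, Blvrb, Slc11a1, Slc48a1, Fth1 and Ftl1. Its summed resident macrophage markers were also the lowest, 1334 CPM, against 8492 to 25450 CPM in GFP libraries.

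The genes that most resembled each of the 9 across the 18 libraries are given as a description, by Spearman's rho of log2(CPM + 1) among 6691 genes with a mean of at least 20 CPM. The libraries share their scaling and their cell content, which enter every such value. Cd163 was most like Plekhg5 (0.905), Cbr2 (0.901), a gene of the resident macrophage list, and Btg2 (0.868). Ftl1 was most like Npc2 (0.996), which encodes a lysosomal cholesterol carrier, Cd68 (0.994), which encodes a lysosomal glycoprotein of macrophages, and Bcat2 (0.986). Fth1 went with Degs1 (0.986), Fkbp1a (0.971) and Clec4d (0.969), and Blvrb with Nagk (0.979), Nhp2 (0.977) and Vamp8 (0.971). Slc11a1 went with Tes (0.967), Alas1 (0.961), which encodes the enzyme that opens heme synthesis, and Rcn2 (0.957). Slc48a1 was nearest to Csda (0.920), Ephx1 (0.886) and Tex264 (0.886). The values for Hmox1 were lower, with Vill (0.777), Adssl1 (0.754) and Litaf (0.740), as were those for Tfrc, with Sept11 (0.839), Gem (0.804) and Il6 (0.773), and for Slc40a1, with Egln1 (0.804), Igtp (0.802) and Mkrn2 (0.792).

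The wider pathway gave no called gene between any pair of subsets. Of 26 genes of iron sensing and trafficking, 25 were in the table and 23 were tested. Between YFP and GFP 9 were higher and 14 lower (median log2 fold change -0.25), and between DP and GFP 13 were higher and 10 lower (0.09), with 0 called in either. Its most abundant genes were Trf, which encodes transferrin itself, Pcbp1, which encodes an iron chaperone that serves ferritin, and Hfe, which encodes a partner of the transferrin receptor. Trf averaged 1364 ± 622 CPM in YFP, 1300 ± 500 CPM in DP, 2166 ± 560 CPM in GFP and 1293 ± 993 CPM in DN. Pcbp1 averaged 349 ± 156 CPM in YFP, 353 ± 249 CPM in DP, 342 ± 97.5 CPM in GFP and 278 ± 120 CPM in DN. Hfe averaged 118 ± 52.9 CPM in YFP, 165 ± 173 CPM in DP, 152 ± 45.2 CPM in GFP and 99.4 ± 91.1 CPM in DN. Trf had log2 fold changes of -0.67 ± 0.52 between YFP and GFP and -0.74 ± 0.56 between DP and GFP (edgeR adjusted p = 0.959 and 1).

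The 2 genes of this list with the widest differences, Lcn2 and Ltf, encode iron-binding proteins of neutrophil granules and also stand on the neutrophil list. Lcn2 was at 6.07, 4.88, 69.5 and 1475 CPM in DP replicates 1, 2, 4 and 5, against 1.10 to 21.5 CPM in GFP libraries (log2 fold change 5.39 ± 1.34, edgeR adjusted p = 0.0890). Ltf was at 1.58, 1.22, 3.57 and 121 CPM in the same DP libraries, against 0.0532 to 44.0 CPM in GFP libraries. DN replicates 1, 3 and 6 had 123, 8.72 and 3.82 CPM of Ltf. Lcn2 was highest in DP replicate 5, and Ltf in DN replicate 1 with DP replicate 5 next. Summed neutrophil markers, 11 of 12 of which were in the table, were 38900 CPM in DP replicate 5 and 1688 CPM in DN replicate 1. The iron regulatory proteins, named after their values were seen, were read from Aco1 and Ireb2. Aco1 was among the genes near 0 in single libraries, at 1.80 CPM in YFP replicate 5 and 1.17 CPM in DP replicate 5, against 35.8 to 63.8 CPM in the other YFP libraries, 42.6 to 62.6 CPM in the other DP libraries and 40.5 to 68.4 CPM in GFP libraries. Ireb2 was at 15.6 CPM in YFP replicate 5 and 0.853 CPM in DP replicate 5, against 12.6 to 19.1 CPM in GFP libraries.

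Of 16 genes of heme transport and regulation, 14 were in the table and tested. In YFP against GFP 8 were higher and 6 lower (median 0.12), and between DP and GFP 9 were higher and 5 lower (0.25), with 0 called. Nfe2l2, which encodes the NRF2 factor that drives Hmox1 under oxidative stress, averaged 571 ± 329 CPM in YFP, 574 ± 214 CPM in DP, 815 ± 274 CPM in GFP and 635 ± 423 CPM in DN. Lrp1, whose protein takes up heme bound to hemopexin among many ligands, averaged 546 ± 399 CPM in YFP, 564 ± 338 CPM in DP, 412 ± 213 CPM in GFP and 364 ± 298 CPM in DN. Pgrmc1, which encodes a heme-binding membrane protein, averaged 193 ± 199 CPM in YFP, 156 ± 157 CPM in DP, 94.6 ± 32.0 CPM in GFP and 86.5 ± 47.0 CPM in DN. These subset means lay within the spread between libraries.

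Spic and Hp had the widest differences of that list. Spic, which encodes a factor that iron-recycling macrophages of the spleen need, was at 3.57, 13.5, 6.23, 0.698 and 2.99 CPM in YFP replicates 1, 3, 4, 5 and 6. DP replicates 1, 2, 4 and 5 held 4.08, 2.60, 2.66 and 0.320 CPM. GFP libraries had 6.93 to 23.4 CPM of Spic, above every DP library, and DN replicates 1, 3 and 6 had 0.116, 9.16 and 5.06 CPM. Between DP and GFP, Spic had a log2 fold change of -2.64 ± 0.97 (edgeR adjusted p = 0.394), in a comparison where 1.32% of all genes had ranges that did not overlap. Hp, which encodes the haptoglobin that Cd163 binds in complex with hemoglobin and which is also on the monocyte list, had 3.19 to 35.8 CPM in YFP libraries, 6.59 to 616 CPM in DP libraries, 50.6 to 122 CPM in GFP libraries and 22.1 to 91.5 CPM in DN libraries. For Hp, every YFP library was below every GFP library (log2 fold change -2.17 ± 0.86, adjusted p = 0.600), where 0.834% of all genes had ranges that did not overlap.

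Heme synthesis was covered by 12 genes, all tested. Of these, between YFP and GFP, 8 were higher and 4 lower (median 0.44), and between DP and GFP 7 were higher and 5 lower (0.17), with 0 called. Alas1, whose enzyme opens the pathway outside red cells, averaged 323 ± 224 CPM in YFP, 250 ± 170 CPM in DP, 192 ± 93.4 CPM in GFP and 172 ± 109 CPM in DN. Tmem14c, which encodes a mitochondrial carrier for a late precursor, averaged 98.0 ± 103 CPM in YFP, 72.8 ± 62.3 CPM in DP, 65.6 ± 33.6 CPM in GFP and 58.1 ± 41.5 CPM in DN. Fech, which encodes the enzyme that sets iron into the ring, averaged 48.6 ± 27.8 CPM in YFP, 88.0 ± 84.9 CPM in DP, 56.7 ± 18.3 CPM in GFP and 48.3 ± 24.5 CPM in DN. Alad, whose enzyme acts in an early step, was at 209 CPM in YFP replicate 5, against 7.07 to 20.3 CPM in GFP libraries. In the other YFP libraries Alad was at 11.2 to 14.9 CPM, inside the GFP range. YFP replicate 5 thus had its high Alad level beside high Blvrb and ferritin levels.

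NRF2 targets other than the 9 genes were 14, all tested. Between YFP and GFP 9 were higher and 5 lower (median 0.38), and between DP and GFP 11 were higher and 3 lower (0.67), with 0 called. Prdx1, which encodes a peroxide-reducing enzyme, averaged 2569 ± 2865 CPM in YFP, 1190 ± 1368 CPM in DP, 944 ± 498 CPM in GFP and 998 ± 889 CPM in DN. Txnrd1, which encodes thioredoxin reductase, averaged 507 ± 427 CPM in YFP, 352 ± 278 CPM in DP, 517.5 ± 223.5 CPM in GFP and 584 ± 529 CPM in DN. Taldo1, which encodes an enzyme of the pentose phosphate pathway, averaged 441 ± 354 CPM in YFP, 715 ± 953 CPM in DP, 282 ± 117 CPM in GFP and 246 ± 169 CPM in DN. Nqo1, which encodes a quinone reductase, was at 1.25, 2.77, 25.5 and 53.4 CPM in DP replicates 1, 2, 4 and 5, against 0.653 to 3.07 CPM in GFP libraries (log2 fold change 3.28 ± 0.94, edgeR adjusted p = 0.145). Me1, which encodes malic enzyme, was at 12.1, 2.76, 5.92, 125 and 2.99 CPM in YFP replicates 1, 3, 4, 5 and 6, against 1.52 to 4.52 CPM in GFP libraries (log2 fold change 3.44 ± 0.99, adjusted p = 0.305). The high Nqo1 values were those of the libraries labelled DP that were low in Cx3cr1.

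**Figure D4:**
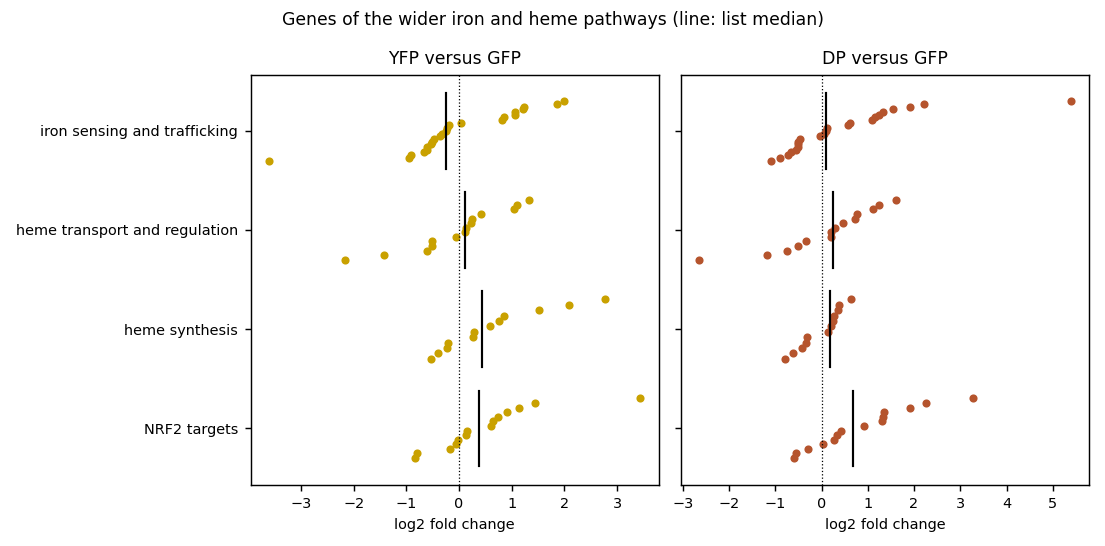
Fitted log2 fold changes of the tested genes of the wider pathway lists, between YFP and GFP (left) and DP and GFP (right). The lists are iron sensing and trafficking, heme transport and regulation, heme synthesis and NRF2 targets, with a point per gene and a line at each list median. The heme synthesis medians, for example, were 0.44 (left) and 0.17 (right).

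Red cell RNA was looked for with a list of 15 erythroid genes, of which 10 were in the table and 4 were tested. The adult globin genes Hba-a1, Hba-a2, Hbb-b1 and Hbb-b2 were listed at 0 in all 18 libraries, and as near-identical copies their counts depend on how reads with several matches were treated. The summed erythroid level was 0.598 to 41.8 CPM in YFP libraries, 1.62 to 14.9 CPM in DP, 2.66 to 12.4 CPM in GFP and 3.82 to 7.18 CPM in DN. Ermap, a red cell membrane protein gene and the most abundant of them, averaged 4.37 ± 4.78 CPM in YFP, 4.53 ± 4.08 CPM in DP, 4.88 ± 2.56 CPM in GFP and 3.54 ± 2.87 CPM in DN. Alas2, which encodes the red cell form of the first heme enzyme, averaged 3.52 ± 4.90 CPM in YFP, 0.314 ± 0.244 CPM in DP, 0.551 ± 0.529 CPM in GFP and 0.758 ± 0.705 CPM in DN. Rhag, which encodes a red cell membrane channel, was highest in YFP replicate 6, at 8.96 CPM. That library also gave the erythroid sum of 41.8 CPM, but had only 289166 counts in all, so both values rest on few reads. The next highest erythroid sum in YFP was 13.7 CPM, in replicate 1. The highest Alas2 level was 10.8 CPM, in YFP replicate 1. With the globins listed at 0, these values set no limit on red cell RNA.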

How the data were processed

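Immune cells sorted from arteries were profiled by RNA sequencing in 18 libraries. The submitters' processing notes name TopHat 1.4.1, HTSeq 0.7.1, SAMtools and mm10. Which annotation was counted, and whether by strand, is not given in the sources used here, and overlapping or antisense genes may share reads. The deposited values are raw whole counts of reads for each gene, in 1 table whose columns matched samples by name. Libraries within a subset all differed beyond sampling noise (smallest chi-square per df 16.38). Genes were filtered with filterByExpr, scaled by TMM and fitted over all libraries, 1 mean per subset, with edgeR 4.0.16 (robust quasi-likelihood) in R 4.3.3, and checked on simulated data; p-values were adjusted by Benjamini-Hochberg at 0.05. DESeq2 1.42.0 was an alternative. CPM use the TMM-scaled library size; 95% intervals assume a normal error. The genes and the lists of related and marker genes, 205 entries of which 183 matched, were chosen with earlier results of these data known. Besides the 9 genes, the text names from each pathway list the 3 most abundant genes and the 2 with the widest change at a mean of at least 5 CPM, and for each of the 9 the 3 most like it. A gene that this rule takes from the heme synthesis list is not reported here. Coordinates and exon lengths are from GENCODE vM21. Deviations of same-numbered libraries from the means of their subsets correlated above 0.1 in every pair for some comparisons. These were DP and GFP (0.226, 0.313, 0.164 and 0.416), YFP and DP (0.164, 0.169 and 0.342) and GFP and DN (0.57, 0.594 and 0.673). Between YFP and GFP the values were 0.51, 0.478, 0.514 and 0.41 for numbers 1, 3, 4 and 5, and -0.019 for number 6. Numbers were therefore used as a block in an alternative fit, from the data and not the labels. The main fit, which gave the fold changes and p-values above unless stated, had no block. Libraries of unlike number were not compared, so these values do not show that a number marks a pair. Numbers 1 and 2 also differed from 3 to 6 in detected genes. With the number as a block, edgeR called 0 genes between DP and GFP against 34 without it.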

Additional observations from a re-analysis of the deposited data

Results flagged for a closer look

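A sample far from the others of its subset was found in 12 of 27 gene-by-subset groups of 4 or more libraries. The rule set the gap to the nearest library against the range of CPM. Its rate by chance, about 1 in 20, holds for normally spread values, which CPM were not shown to be. Groups also share libraries, so the 12 cannot be set against that rate. In YFP cells, replicate 5 stood above the others for Cd163 (251 CPM), Blvrb (769 CPM), Slc48a1 (905 CPM) and Ftl1 (90400 CPM). In DP cells, replicate 5 stood apart for Blvrb (642 CPM), Tfrc (113 CPM), Fth1 (44600 CPM) and Ftl1 (57400 CPM), and replicate 4 for Slc40a1 (48.1 CPM). In GFP cells, replicate 3 stood apart for Cd163 (388 CPM) and Tfrc (27.3 CPM), and replicate 5 for Blvrb (213 CPM). YFP replicate 5 and DP replicate 5 made up 8 of the 12, and both also had the lowest scaling factors (0.445 and 0.533).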

How the results depend on the processing

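Wherever a p was given, none of the 54 results for the 9 genes was called under any of 26 alternatives, 18 of which left out 1 library each; DESeq2 set no p for the 12 results of Blvrb and Tfrc. Of the 54, 20 kept their sign in all of them. Counts of called genes over the whole table moved more. Between DP and GFP, edgeR called 34 genes, 92 with DESeq2's size factors, 62 with no filter on low counts, 362 by DESeq2's own test, 0 to 252 with a library left out, and 0 with the replicate block, with the set of numbers as a covariate, without the 4 DP and DN libraries against their labels, with library totals alone and without the libraries numbered 5. For a difference among any subsets it called 57 genes, and under the same settings 135, 132, 429, 0 to 253, and 0 in each of the last 5. Between YFP and GFP the count was 0, 9 with no filter, 186 by DESeq2 and 0 to 11 with a library left out, and DESeq2 called 130 between YFP and DP, 30 between DP and DN and 12 between YFP and DN. Library totals and the removal of the libraries numbered 5 were chosen after seeing the data.

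Log2 fold changes that turned sign between DP and GFP were, with the replicate block, -0.033 for Hmox1 and -0.258 for Slc40a1; without the 4 libraries, -0.313 for Hmox1, -0.275 for Blvrb, -0.309 for Slc40a1, -0.0197 for Slc11a1, -0.0183 for Tfrc, -0.111 for Fth1 and -0.265 for Ftl1; with library totals, -0.155 for Hmox1; and without the libraries numbered 5, -0.42 for Hmox1, -0.378 for Blvrb, -0.142 for Tfrc, -0.19 for Fth1 and -0.458 for Ftl1. Between YFP and GFP, Slc11a1 was at -0.123 with the replicate block, -0.122 with the set of numbers, -0.0505 with library totals and -0.114 without the libraries numbered 5. With a library left out, Cd163 ran from -1.33 to -0.03 between YFP and GFP, and the ranges between DP and GFP were -1.40 to 0.143 for Cd163, -1.16 to 1.34 for Slc40a1, -0.197 to 0.523 for Hmox1, -0.473 to 1.99 for Blvrb, 0.148 to 2.25 for Tfrc, -0.104 to 1.47 for Fth1 and -0.404 to 1.19 for Ftl1. Between YFP and GFP they were -0.128 to 1.88 for Blvrb, -0.091 to 0.74 for Slc11a1 and -0.10 to 1.49 for Ftl1, and for Slc48a1 between YFP and DP -0.22 to 1.52. The cause was not tested. DESeq2's size factors set the median of all genes at 0.202 between YFP and GFP and 0.375 between DP and GFP, against 0.0418 and 0.197 with TMM. Between YFP and GFP and in both comparisons of YFP and DP with DN, not every same-numbered pair correlated above 0.1, and the replicate block called 0 genes there as well. Depth limits YFP replicate 6 (289166 counts), where Slc40a1 and Tfrc rest on 5 and 6 counts.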
